A study of Sus scrofa with 13 samples.

Results

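Skeletal muscle of Hampshire and Pietrain pigs with low loin weight was compared gene by gene. The comparison holds 6 of the 13 pigs of the series, namely Hampshire pigs 1, 2 and 3 and Pietrain pigs 3, 5 and 8, chosen by the breed and the loin weight group in the sample labels. All 6 were females aged 6 months, and each library came from the longissimus lumborum of 1 pig, sampled right after slaughter. The study's methods state that the pigs were unrelated, were kept and fed alike and were picked within each breed for extreme loin weight, so a low loin weight is low for the pig's own breed. The group means that the study gives for loin weight, ham weight and lean meat percentage were all lower in Hampshire low than in Pietrain low. Breed therefore cannot be told apart from these traits. No treatment or genotype is given. The labels name no batch, and each breed has its own count table, so breed cannot be told apart from any difference in handling or sequencing between the breeds.

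Both breeds are used as sire lines and are heavily muscled. Pietrain pigs are known for extreme leanness and for an allele of RYR1, the calcium release channel of the sarcoplasmic reticulum, that makes muscle prone to rapid acidification. Hampshire pigs are known for an allele of PRKAG3, a regulatory subunit of AMP-activated protein kinase (AMPK), that raises muscle glycogen. AMPK senses low cellular energy and acts on glucose uptake, glycogen and mitochondria, and PPARGC1A is the coactivator through which mitochondrial genes and oxidative fibres are driven. Neither allele was typed in these data.

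The deposited values are reads counted per Ensembl gene, with totals between 13188257 and 19654436 in the Hampshire low pigs and between 11312755 and 14941401 in the Pietrain low pigs. The 10 most abundant genes took 31.2 to 36.4% of the counts in Hampshire and 26.9 to 29.2% in Pietrain. Muscle markers were high in every pig: ACTA1, skeletal actin, ranged from 50600 to 76700 CPM in Hampshire and from 38300 to 44000 CPM in Pietrain (CPM here is the count scaled to a common library size with TMM, edgeR's trimmed mean normalization). Myoglobin, titin and MYH2 matched no gene by symbol. Across all tested genes, log2 CPM of pigs of the same breed had correlations of 0.953 to 0.98, and pigs of different breeds 0.905 to 0.952. Pairs of pigs within a group differed by far more than counting noise, so all were kept as separate replicates.

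Pietrain pig 5 stood apart in slow fibre genes. The level of MYH7, the slow myosin heavy chain, was 1311, 3595 and 2144 CPM in Hampshire pigs 1, 2 and 3, and 4201, 6.51 and 3025 CPM in Pietrain pigs 3, 5 and 8. The slow troponins TNNI1 and TNNT1, named after their values were seen, were at 3.77 and 2.75 CPM in that pig and between 333 and 1352 CPM in the others. Its fast fibre genes were not low, with a summed level of 149000 CPM against 108000 to 163000 CPM in the other pigs, and the summed slow fibre level was 2940 CPM against 5570 to 10700 CPM. Identifiers of the myosin heavy chains are uncertain, because the genes are near-identical neighbours and a second table of names calls the MYH7 identifier MYH6. Pietrain pig 3 stood apart in immediate early genes, which respond within minutes to stress or injury, with a summed level of 4420 CPM against 539 to 2120 CPM in the other 5 pigs.

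Breed differences were spread over the expressed genes in both directions. Of 12023 genes tested with edgeR's quasi-likelihood test, 2830 (23.5%) were differentially expressed genes (DEGs), defined by an adjusted p below 0.05 after Benjamini-Hochberg correction together with a difference of 1.2-fold or more. In Hampshire, 1341 genes (11.2%) were higher and 1489 (12.4%) lower. Differences of at least 2-fold were more frequent among the higher genes, 739 against 474. The CPM of the 2 groups did not overlap for 5283 genes (43.9%), among them 2804 of the DEGs. The median log2 fold change over all tested genes was 0.0033, a value that TMM scaling holds near 0. With edgeR's upper quartile factors instead, the median was 0.0753, and 1527 DEGs were higher and 1316 lower. Fold changes are Hampshire relative to Pietrain throughout, and gene lists below are set against the shares and the median obtained with TMM. With 3 pigs against 3, a two-sided exact permutation test cannot give a p-value below 0.1, so single genes rest on the edgeR fit, which shares the spread across genes.

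The number of DEGs depended on which pigs were in the fit. It was 195 without Hampshire pig 3, 309 without Pietrain pig 8, 409 without Hampshire pig 2, 1113 without Pietrain pig 5, 2174 without Hampshire pig 1 and 3572 without Pietrain pig 3. Of 132 DEGs followed across these fits (PRKAB2 added after its values were seen, the others taken by a rule), 37 passed in all 6 of these fits, 21 were lost in 1 or 2 fits and 74 in 3 or more. None of the 132 changed direction, and the largest adjusted p-value any of them took was 0.178. The number of these 6 fits in which a gene stayed a DEG is given below as its fit count.

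**Figure D1:**
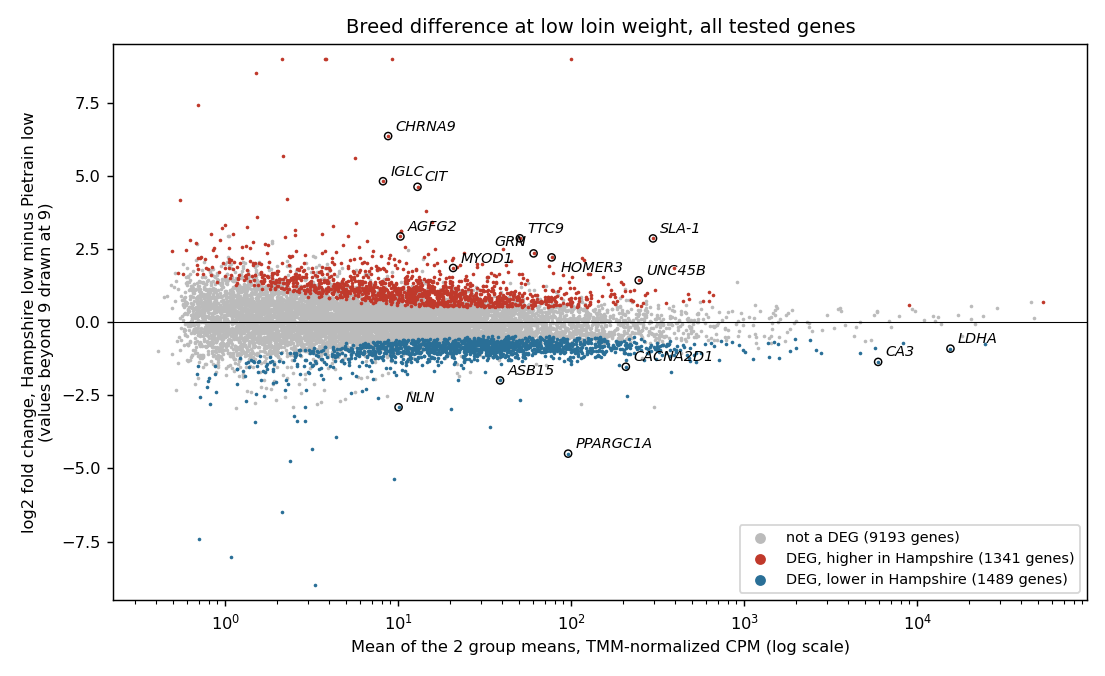
Each point is 1 of the 12023 tested genes, with its mean level on the x axis (CPM, log scale) and its log2 fold change, Hampshire low minus Pietrain low, on the y axis. Red and blue mark the 1341 higher and 1489 lower DEGs. Circled genes other than NLN and AGFG2 are described in the text, with PPARGC1A at -4.50 and CHRNA9 at 6.35. NLN lies at -2.91 (fit count 2) and AGFG2 at 2.92 (fit count 6).

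PPARGC1A, the coactivator of mitochondrial biogenesis, had the largest fall of the named genes. Its level was 7.84, 4.79 and 11.9 CPM in the Hampshire pigs and 201, 169 and 180 CPM in the Pietrain pigs. All Hampshire pigs were thus far below all Pietrain pigs, and the spread within each breed was small against the gap. The means were 8.18 ± 3.57 and 183 ± 16.3 CPM (SD, n = 3 each), a 22.6-fold difference (log2 fold change -4.50 ± 0.32 SE, adjusted p = 0.000807). PPARGC1A (ENSSSCG00000029275) lies on an unplaced scaffold of the Sscrofa10.2 assembly, from position 15045 to 57267. It had a fit count of 6, with log2 fold changes between -4.86 and -4.19 and adjusted p-values up to 0.00938.

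Most PPAR regulators that differed went the other way. Of 14 PPAR regulators and uncoupling proteins tested, 6 were higher and 1, PPARGC1A, was lower in Hampshire, and the list's median log2 fold change was 0.87. PPARD, the PPAR receptor most active in muscle, was at 23.7, 24.8 and 19.1 CPM in Hampshire and at 9.29, 7.06 and 9.71 CPM in Pietrain. The 2 groups did not overlap (log2 fold change 1.37 ± 0.20 SE, adjusted p = 0.00865). RXRG, a retinoid receptor that pairs with PPARs, was 2.13-fold higher. UCP3, the muscle uncoupling protein of the inner mitochondrial membrane, was at 42.3, 86.3 and 89.8 CPM in Hampshire and at 29.5, 27.6 and 30.5 CPM in Pietrain. The Pietrain pigs lay within a narrow band below all Hampshire pigs (1.32 ± 0.27 SE, adjusted p = 0.0167), and its neighbour UCP2 was 2.60-fold higher (adjusted p = 0.0201). UCP3 and UCP2 lie side by side on chromosome 9 (9166711 to 9179299 and 9147993 to 9155011, Sscrofa10.2). PDK4, the kinase that shuts pyruvate out of mitochondria on fasting, was at 10.3, 22.5 and 180 CPM in Hampshire and at 15.9, 581 and 1000 CPM in Pietrain. Its pigs overlapped and its spread within each breed was more than 10-fold, so no difference was detectable (adjusted p = 0.139). Fit counts were 6 for PPARD, 5 for RXRG and 2 for UCP3 and UCP2, and 1 to 6 genes of the list were higher when 1 pig was left out, with 1 in the fit without Pietrain pig 8.

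The catalytic AMPK subunit PRKAA2 and an identifier named PRKAA1, the other catalytic subunit, were lower in Hampshire. The list of AMPK subunits and upstream kinases held 9 symbols and 10 tested identifiers. Of the 10, 4 were lower and none higher, and the others did not pass (median log2 fold change -0.68). PRKAG3, the muscle-specific gamma subunit, was at 24.3, 30.1 and 32.8 CPM in Hampshire and at 50.7, 89.6 and 43.6 CPM in Pietrain. Every Pietrain pig was above every Hampshire pig, pig 5 the most (log2 fold change -1.08 ± 0.28 SE, adjusted p = 0.0278). PRKAA2, the catalytic subunit that predominates in muscle, was at 148, 157 and 140 CPM in Hampshire and at 286, 309 and 338 CPM in Pietrain, a tight 2.10-fold difference (adjusted p = 0.00865). The identifier ENSSSCG00000024598, named PRKAA1, was 2.28-fold lower (adjusted p = 0.0171), and the match of identifiers to this symbol is uncertain. The scaffold subunit PRKAB2, named after its values were seen, was lower by 0.92 on the log2 scale (adjusted p = 0.0308). Leaving out single pigs gave fit counts of 5 for PRKAA2, 3 for PRKAA1, 2 for PRKAB2 and 1 for PRKAG3, and no AMPK gene passed without Hampshire pig 3. The log2 fold change of PRKAG3 was -0.71 without Pietrain pig 5.

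Glycogen genes differed in both directions. Of 19 tested, 4 were higher and 4 lower in Hampshire, and the median log2 fold change was 0.08. GYS1, the muscle glycogen synthase, was at 810, 827 and 883 CPM in Hampshire and at 450, 340 and 449 CPM in Pietrain. It was thus about 2-fold higher in Hampshire with no overlap (1.03 ± 0.18 SE, adjusted p = 0.0113). GAA, which breaks down glycogen in lysosomes, was also higher, at 24.7, 36.3 and 31.7 against 18.6, 14.9 and 12.8 CPM (adjusted p = 0.018). PHKB, a subunit of the kinase that activates glycogen phosphorylase, was lower, at 804, 605 and 639 CPM in Hampshire and 891, 1293 and 1322 CPM in Pietrain, a 1.71-fold difference (adjusted p = 0.0346). The phosphorylase itself, PYGM, was abundant in every pig, 9703 to 12030 CPM, and did not pass the test (log2 fold change 0.08 ± 0.17 SE), nor did UGP2, which makes the glucose donor (adjusted p = 0.16). The fit count was 4 for GYS1 and 2 for GAA and PHKB. No glycogen gene passed without Hampshire pig 3 or without Pietrain pig 8.

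The transporters SLC2A4 and SLC16A3 were higher in Hampshire and LDHA was lower. SLC2A4, the insulin-responsive glucose transporter GLUT4, was at 37.6, 43.1 and 29.1 CPM in Hampshire and at 17.7, 5.73 and 13.7 CPM in Pietrain. It was 2.96-fold higher in Hampshire without overlap (adjusted p = 0.0216). SLC16A3, the lactate exporter of fast fibres, was at 172, 195 and 206 CPM in Hampshire and at 74.8, 26.3 and 31.3 CPM in Pietrain, a 4.34-fold difference (2.12 ± 0.37 SE, adjusted p = 0.0111). Of 22 glycolytic genes tested, 1 was higher and 2 lower (median 0.27). LDHA, the lactate dehydrogenase subunit of fast muscle, was at 12770, 9337 and 10290 CPM in Hampshire and at 17710, 21090 and 22050 CPM in Pietrain. The 2 breeds did not overlap (-0.91 ± 0.19 SE, adjusted p = 0.0177), while LDHB did not pass (adjusted p = 0.443). GPD2, the mitochondrial end of the glycerol phosphate shuttle, was lower (adjusted p = 0.036) and PFKL, the liver-type phosphofructokinase, higher at 4.23 to 9.29 CPM (adjusted p = 0.0357). A list called energy buffer also holds these 2 transporters and CA3, the carbonic anhydrase of muscle. Among its 13 tested genes, 4 were higher, SLC2A4 and SLC16A3 among them, and 2 lower (median 0.54). The lower genes were CA3, at 2914 to 3679 against 6854 to 11030 CPM, and AMPD1, which deaminates AMP. Fit counts were 5 for CA3, 4 for SLC16A3, 3 for SLC2A4 and LDHA, and 2 or fewer for AMPD1, GPD2 and PFKL.

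**Figure D2:**
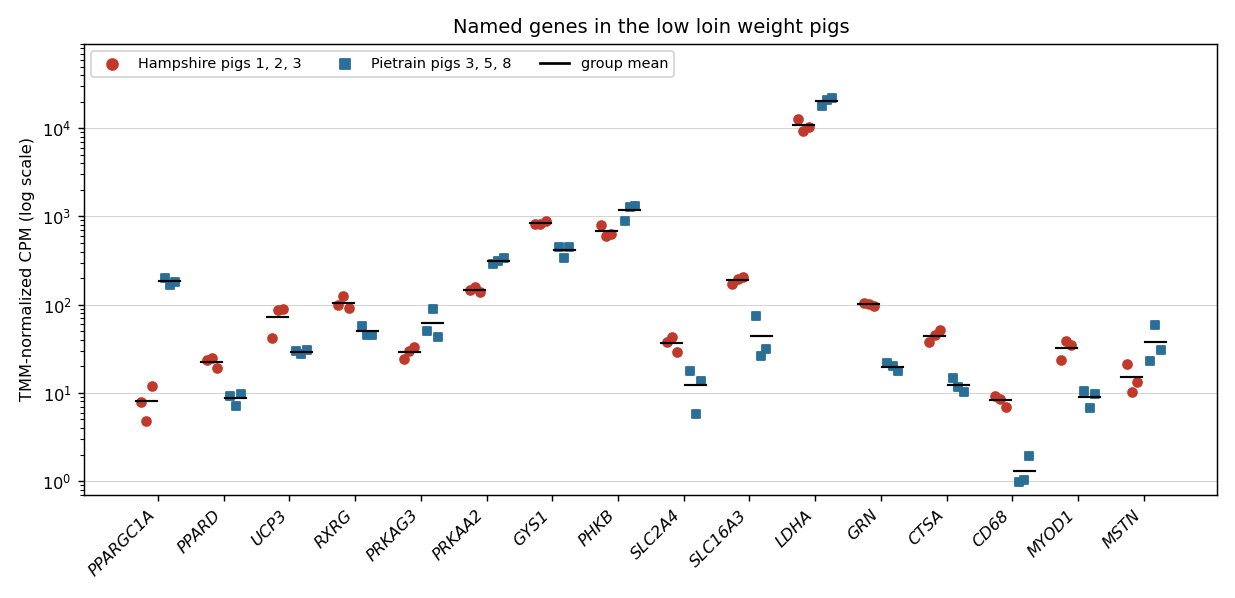
TMM-normalized CPM (y axis, log scale) of 16 named genes in each low loin weight pig, with Hampshire pigs as red circles, Pietrain pigs as blue squares and group means as black bars. PPARGC1A shows the widest gap, 4.79 to 11.9 against 169 to 201 CPM, and the groups do not overlap for any gene shown.

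Mitochondrial genes held DEGs in both directions. None of the lists in this paragraph held a larger share of DEGs than the 23.5% over all tested genes. Of 65 nuclear genes for oxidative phosphorylation, 11 were higher and 3 lower in Hampshire, and the median log2 fold change was 0.10. NDUFA10, a complex I subunit, was at 115, 138 and 104 CPM in Hampshire and at 60.5, 45.9 and 52.5 CPM in Pietrain (1.17 ± 0.18 SE, adjusted p = 0.0096). SDHA, which serves both complex II and the citric acid cycle, was at 230, 227 and 196 against 120, 104 and 126 CPM (adjusted p = 0.0115). Both had no overlap between breeds, whereas CYCS, cytochrome c, and NDUFA5 were lower in Hampshire by 0.79 and 1.04 on the log2 scale (adjusted p = 0.0321 and 0.0174). The 13 mitochondrially encoded genes held no DEG by edgeR or DESeq2 and none with an unadjusted p under 0.05, and their median was 0.10. In the citric acid cycle list, 5 of 26 genes were higher and 1 was lower (median 0.17). OGDH, a rate-limiting enzyme of the cycle, rose to 341, 349 and 356 CPM against 204, 171 and 182 CPM (adjusted p = 0.0111), and PDK1, an inhibitor of pyruvate entry, was 5.497 to 6.067 against 13.59 to 16.02 CPM (adjusted p = 0.00702). Among 61 mitochondrial ribosomal proteins, 7 were higher and 4 lower (median -0.11), led by MRPL28 at 123 to 176 against 44.1 to 56.1 CPM. Leaving out single pigs gave fit counts of 6 for NDUFA10, PDK1 and MRPL28, 4 for OGDH, 3 for SDHA and NDUFA5, and 2 for CYCS. From 1 to 13 oxidative phosphorylation genes were higher when 1 pig was left out, with 1 in the fits without Hampshire pig 2, Hampshire pig 3 or Pietrain pig 8.

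Fatty acid genes differed in both directions. Of 22 uptake and oxidation genes, 6 were higher and 4 lower (median -0.09). ACADS, which starts the oxidation of short chains, was at 171, 128 and 139 CPM in Hampshire and at 71.6, 64.8 and 80.3 CPM in Pietrain, and ACSS1, which activates acetate in mitochondria, was 4.23-fold higher (adjusted p = 0.0111 and 0.00992). CD36, the fatty acid translocase, was lower in Hampshire, 201 to 305 against 340 to 457 CPM (adjusted p = 0.0331), and so was DECR1, which helps oxidise unsaturated chains (adjusted p = 0.0295). FABP3, the fatty acid carrier of muscle, did not pass (adjusted p = 0.361). Of 12 adipocyte and lipid storage genes, 4 were higher and 1 lower (median 0.56). The 2 main lipases, PNPLA2 and LIPE, were at 30.9 to 69.2 and 6.68 to 10.9 CPM in Hampshire and at 21.0 to 25.8 and 2.54 to 4.00 CPM in Pietrain. Both were higher in every Hampshire pig (adjusted p = 0.024 and 0.0158), as was DGAT1, the last step of triglyceride synthesis (adjusted p = 0.0106), while SCD, the stearoyl-CoA desaturase, was 19.66 to 35.05 against 40.1 to 60.8 CPM (adjusted p = 0.036). The adipocyte markers PLIN1 and CIDEC were at most 3.03 CPM in any pig. The fit count was 6 for ACSS1, 5 for ACADS and DGAT1, 3 for LIPE, and 2 or fewer for CD36, DECR1, PNPLA2 and SCD.

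Cholesterol synthesis was lower in Hampshire for every gene of the pathway that passed. Of 21 genes tested, 6 were lower and none higher, with a median log2 fold change of -0.47. HMGCS1, which opens the mevalonate pathway, was at 36.8, 32.7 and 35.6 CPM in Hampshire and at 69.5, 73.9 and 67.3 CPM in Pietrain. The spread within each breed was under 4 CPM (SD 2.13 and 3.36, n = 3 each), and the difference was 2.01-fold (adjusted p = 0.00819). MSMO1, a sterol oxidase of the late pathway, was at 8.27, 7.34 and 5.64 against 17.26, 16.01 and 16.13 CPM (adjusted p = 0.0108). CYP51A1, a demethylase of the pathway named by the study, was 17.0 to 30.8 against 28.9 to 50.2 CPM and did not pass by edgeR (adjusted p = 0.0725), while DESeq2 called it lower (adjusted p = 0.0336). Fit counts were 6 for HMGCS1 and 5 for MSMO1. The number of lower genes ranged from 1 without Hampshire pig 3 to 7.

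Structural genes of the sarcomere were lower in Hampshire where they differed. Of 20 scaffold and Z-disc genes, 6 were lower and none higher (median -0.47). XIRP2, an actin-binding protein of the Z-disc region, was at 2697, 3308 and 3054 CPM in Hampshire and at 4902, 7806 and 6234 CPM in Pietrain (-1.06 ± 0.21 SE, adjusted p = 0.0159). SYNM, the intermediate filament synemin, was at 313, 288 and 269 against 492, 600 and 586 CPM (adjusted p = 0.0115), and NEB, the ruler of the thin filament, was 1.65-fold lower (adjusted p = 0.0295). None of the 3 overlapped between breeds. In contrast, ACTA1 was higher in Hampshire (adjusted p = 0.039), and UNC45B, the chaperone that folds myosin, was at 359, 370 and 343 against 139, 133 and 127 CPM (1.43 ± 0.15 SE, adjusted p = 0.00517). Of 9 fast fibre genes, ATP2A1, the calcium pump of fast fibres, was higher and MYL1, a myosin light chain, was lower (adjusted p = 0.0394 and 0.039, median of the list -0.17), while MYH1 did not pass by edgeR (adjusted p = 0.104) and was called higher by DESeq2 (log2 fold change 0.69, adjusted p = 0.0408). None of 8 slow fibre genes passed by edgeR or DESeq2, and 0 had an unadjusted p under 0.05 (median -0.19), and without Pietrain pig 5 the median was -0.65 and 1 passed. Leaving out single pigs gave fit counts of 6 for UNC45B, 3 for XIRP2 and SYNM, 2 for NEB and MYL1 and 1 for ACTA1 and ATP2A1. No scaffold gene passed without Hampshire pig 3 or without Pietrain pig 8.

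Calcium handling held changes on both sides. RYR1 did not pass, at 2081, 2783 and 2817 CPM in Hampshire and 3149, 3326 and 2774 CPM in Pietrain (-0.27 ± 0.19 SE, adjusted p = 0.317), and neither did its voltage sensor CACNA1S (adjusted p = 0.266). Of 17 genes for excitation-contraction coupling, 3 were higher and 4 lower (median -0.0044). JPH1, which ties the reticulum to the surface membrane, was at 348, 272 and 341 against 470, 883 and 738 CPM, and TRDN, the anchor of the calcium store at RYR1, was at 178, 146 and 184 against 253, 403 and 290 CPM (adjusted p = 0.0194 and 0.023). ORAI1 and STIM1, the channel and sensor of store-operated calcium entry, were both higher, at 125, 120 and 116 against 66.5, 53.5 and 66.6 CPM and at 50.6, 55.0 and 51.2 against 33.9, 27.1 and 22.2 CPM (adjusted p = 0.0108 and 0.0163). CACNA2D1, an auxiliary subunit of calcium channels, was at 101, 102 and 116 CPM in Hampshire and at 305, 292 and 322 CPM in Pietrain. It was among the most clearly separated lower genes (-1.53 ± 0.16 SE, adjusted p = 0.00444; chromosome 9, 108068516 to 108551541, Sscrofa10.2). The fit count was 6 for CACNA2D1, 5 for ORAI1, 3 for STIM1 and 2 for JPH1 and TRDN.

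GRN, CAPN1 and several cathepsins were higher in Hampshire. GRN, progranulin, a growth factor precursor that also works in lysosomes, was at 105, 102 and 96.5 CPM in Hampshire and at 22.1, 20.1 and 17.5 CPM in Pietrain. It was 5.08-fold higher, with one of the smallest adjusted p-values of the named genes (2.35 ± 0.16 SE, adjusted p = 0.000807; chromosome 12, 19212206 to 19216305, Sscrofa10.2). Of 14 calpains and cathepsins tested, 6 were higher and none lower (median 0.49). The cathepsins CTSA and CTSB were at 37.6, 45.2 and 51.2 against 14.6, 11.8 and 10.3 CPM and at 242, 314 and 291 against 126, 122 and 100 CPM (adjusted p = 0.00535 and 0.00707). CAPN1, the calcium-activated protease linked to meat tenderness, was at 107, 174 and 128 against 70.5, 52.6 and 57.8 CPM (1.18 ± 0.21 SE, adjusted p = 0.0125). Its inhibitor CAST and the muscle calpain CAPN3 did not pass (adjusted p = 0.366 and 0.914). Fit counts were 6 for GRN, CTSA and CTSB and 4 for CAPN1, and 3 to 7 genes of the list were higher when 1 pig was left out.

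Some macrophage and complement genes were higher in Hampshire. In bulk tissue, more cells of a type and more RNA per cell cannot be told apart. Of 15 macrophage genes, 7 were higher and none lower (median 1.34), and of 13 complement genes 4 were higher (median 1.01), 3 of them the C1q chains that both lists hold. CD68, a lysosomal marker of macrophages, was at 9.13, 8.61 and 6.91 CPM in Hampshire and at 0.986, 1.02 and 1.94 CPM in Pietrain (2.62 ± 0.33 SE, adjusted p = 0.0069). C1QB was at 5.82, 11.1 and 13.7 against 2.14, 0.785 and 2.21 CPM, and C1QC was 5.07-fold higher (adjusted p = 0.0111 and 0.0123). Hampshire pig 1 was the lowest of its breed for the C1q chains and still above all Pietrain pigs. The summed level of the macrophage list was 69.4 to 163 CPM in Hampshire and 33.3 to 46.8 CPM in Pietrain. Of the other fixed macrophage markers, C1QA did not overlap, at 9.56 to 30.9 against 3.06 to 7.7 CPM. AIF1 and CSF1R overlapped between breeds, at 2.98 to 4.11 against 2.43 to 3.04 CPM and at 1.78 to 7.39 against 0.736 to 2.63 CPM. CD163 matched no gene by symbol. PTPRC, which marks all white blood cells, was 4.41 to 8.53 against 5.10 to 7.03 CPM and did not pass (adjusted p = 0.938). The part of the macrophage level in the lysosomal differences was not tested. Leaving out single pigs gave fit counts of 6 for CD68, 5 for C1QB and 4 for C1QC, and without Hampshire pig 3 only 1 macrophage gene and 0 complement genes passed.

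Genes of the major histocompatibility complex (MHC) and of the interferon response leaned the same way with wide spread. Of 18 MHC genes, 5 were higher and none lower (median 1.08). SLA-1, a classical class I gene, was at 193, 534 and 836 CPM in Hampshire and at 89.4, 93.3 and 33.1 CPM in Pietrain (adjusted p = 0.0148). The class I and II genes are polymorphic and near-identical to each other, so their counts are uncertain. One of the identifiers named TAP1, a peptide transporter of the MHC, had 98 to 167 counts (ENSSSCG00000025618) in each Hampshire pig and 0 in each Pietrain pig, at least 101-fold higher against a floor of 3 counts over the group. At high loin weight it had 0, 5 and 0 counts in Hampshire and 0, 0, 18 and 74 in Pietrain. The other TAP1 identifier had counts in all pigs and did not pass (adjusted p = 0.0692), so the value of either copy is uncertain. Of 27 interferon response genes, 10 were higher and 1 lower (median 0.93), with CXCL10 at 5.21, 11.1 and 9.72 against 3.86, 2.59 and 2.21 CPM and GBP1 at 21.7, 35.6 and 44.3 against 17.0, 11.2 and 15.7 CPM (adjusted p = 0.0189 and 0.022). Hampshire pig 2 was the highest pig for many of them, with ISG15, named after its values were seen, at 42.0 CPM there and 1.80 to 8.53 CPM in the other pigs. The number of higher interferon genes was 14 without Hampshire pig 1 and 0 without Hampshire pig 2, Hampshire pig 3, Pietrain pig 5 or Pietrain pig 8. SLA-1 had a fit count of 4, and CXCL10 and GBP1 of 2.

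Other cell types differed less clearly. None of 13 endothelial, 11 smooth muscle, 5 blood and 15 collagen genes was a DEG by edgeR (medians 0.41, 0.31, 0.69 and 0.48). At an unadjusted p under 0.05 there were 4, 1, 1 and 3, by DESeq2 3, 0, 0 and 3, and without Pietrain pig 3 there were 5, 2, 1 and 4, all higher in Hampshire. The summed collagen level was 822 to 1890 CPM in Hampshire and 928 to 1640 CPM in Pietrain, and the endothelial level 263 to 323 against 119 to 318 CPM. Of 30 other matrix genes, 4 were higher and 1 lower (median 0.65). LOXL1, which crosslinks elastin, was at 4.29, 12.8 and 10.22 against 3.70, 0.863 and 1.54 CPM (adjusted p = 0.0273), and P4HA1, which hydroxylates collagen, was lower (adjusted p = 0.0255). Of 5 nerve and Schwann cell genes, MBP was higher, at 1.37 to 5.09 against 0.628 to 0.803 CPM. LOXL1 and P4HA1 had fit counts of 2, and MBP of 1.

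**Figure D3:**
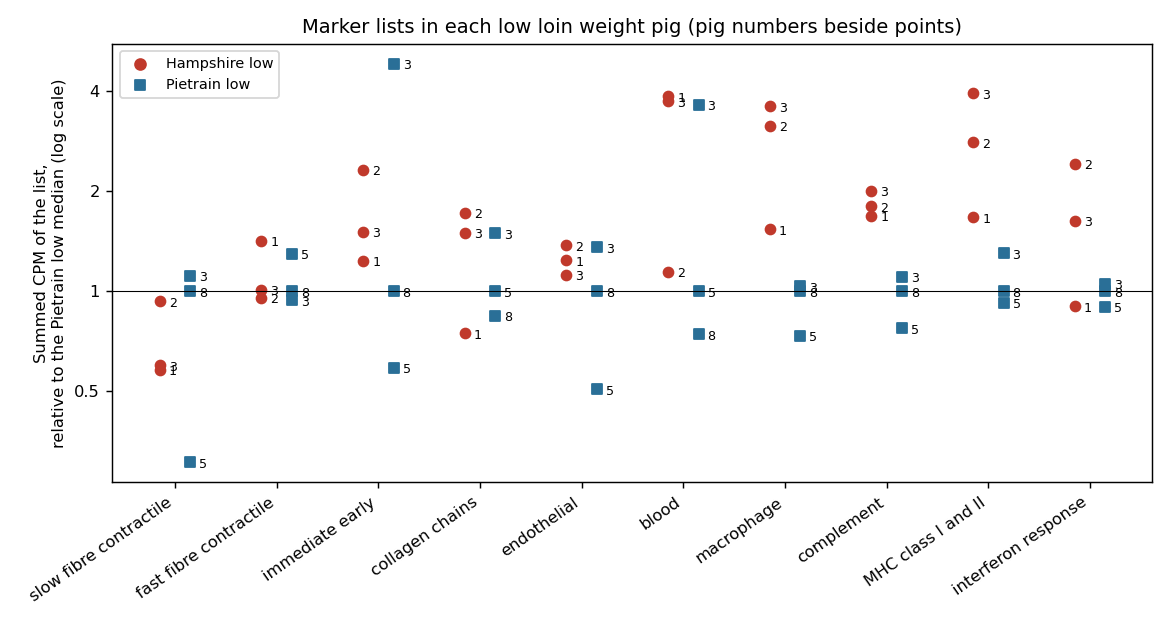
Summed CPM of 10 gene lists in each low loin weight pig, relative to the median of the 3 Pietrain pigs (y axis, log scale), with pig numbers beside the points. The macrophage and complement sums are higher in every Hampshire pig (69.4 to 163 against 33.3 to 46.8 CPM for macrophages), Pietrain pig 5 is low in the slow fibre sum (2940 CPM), and Pietrain pig 3 is high in the immediate early sum (4420 CPM).

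All splicing factors that passed were lower in Hampshire, as were all nuclear transport genes that passed but 1. Of 31 splicing factors, 16 were lower and none higher, with a median log2 fold change of -0.59 against 0.0033 over all genes. SRSF3, a serine-arginine splicing factor, was at 61.0, 55.0 and 62.4 CPM in Hampshire and at 104, 108 and 124 CPM in Pietrain (-0.91 ± 0.15 SE, adjusted p = 0.0108), and one identifier of HNRNPR, an RNA-binding protein, was 17.0 to 18.2 against 29.3 to 35.7 CPM (adjusted p = 0.0139). Of 31 nuclear transport genes, 8 were lower and 1 higher (median -0.36). XPO1, the main exporter of proteins from the nucleus, was at 94.6, 59.9 and 84.2 against 124, 143 and 176 CPM (adjusted p = 0.0242), and NUP107, a pore scaffold, was lower in every Hampshire pig (5.04 to 5.29 against 8.77 to 12.1 CPM, adjusted p = 0.0162). The exception was NUP214 (adjusted p = 0.0252), and outside the list NUP210, a pore membrane protein, was at 15.1, 12.4 and 18.6 against 3.78, 3.06 and 3.41 CPM (adjusted p = 0.00517). Of 30 proteasome genes, 6 were lower and 1 higher (median -0.32), with PSMC6 at 80.8 to 99.2 against 163 to 217 CPM (adjusted p = 0.0112). Of 56 cytosolic ribosomal proteins, 4 were lower and none higher by edgeR (median -0.20), RPL17 and RPL9 the most, at 243 to 304 against 471 to 641 CPM and at 236 to 279 against 449 to 568 CPM (adjusted p = 0.0134 and 0.0125). DESeq2 called 13 ribosomal proteins, 4 of them higher, and edgeR with upper quartile factors called 3 higher and 4 lower. The 4 lower ribosomal proteins by edgeR were a smaller share than the 12.4% of all tested genes that were lower. The proteasome DEGs were close to the 23.5% share over all tested genes, and the lower ones among them above the 12.4%. The fit count was 6 for NUP210, 4 for NUP107, 3 for SRSF3, HNRNPR, PSMC6, RPL17 and RPL9 and 2 for XPO1 and NUP214. The splicing count was 19 without Pietrain pig 3, 12 without Hampshire pig 1, 4 without Pietrain pig 5 and 0 without Hampshire pig 2, Hampshire pig 3 or Pietrain pig 8. The fits with 0 had 409, 195 and 309 DEGs over all genes, in that order. Across the fits that left out 1 pig, the splicing median lay between -0.707 and -0.464.

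Some regulators of muscle growth differed between the breeds. MYOD1, which commits cells to the muscle lineage, was at 23.6, 39.1 and 34.6 CPM in Hampshire and at 10.5, 6.83 and 9.71 CPM in Pietrain. It was 3.60-fold higher in Hampshire, with every Hampshire pig above every Pietrain pig (1.85 ± 0.25 SE, adjusted p = 0.00702). VGLL2, a cofactor of the muscle program, was at 26.4, 24.3 and 21.0 against 9.62, 8.16 and 10.4 CPM (adjusted p = 0.00705), and 4 of 13 myogenic genes were higher and none lower (median 0.23). MSTN, myostatin, the secreted brake on muscle mass, was at 21.5, 10.4 and 13.2 CPM in Hampshire and at 22.8, 58.9 and 30.7 CPM in Pietrain. Hampshire pig 1 nearly reached Pietrain pig 3, and Pietrain pig 5 was the highest (-1.32 ± 0.38 SE, adjusted p = 0.0393). Of 29 genes of myostatin, BMP and SMAD signalling, 6 were lower and none higher (median -0.28), with BMPR1A, a BMP receptor, at 28.9, 23.8 and 26.1 against 57.6, 60.1 and 54.4 CPM, and SKIL, a repressor of SMADs, at 28.7, 20.5 and 25.8 against 58.8, 63.9 and 60.9 CPM (adjusted p = 0.00704 and 0.00702). The 6 lower signalling genes were a smaller share than the 23.5% DEGs over all tested genes, and a larger one than the 12.4% lower. The 4 myogenic DEGs were a larger share than the 23.5%. Fit counts were 6 for MYOD1, VGLL2, BMPR1A and SKIL and 2 for MSTN, whose log2 fold change lay between -1.64 and -0.84 in those fits.

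Insulin-like and mTOR signalling genes went both ways. GHR, the growth hormone receptor, was at 36.5, 32.4 and 29.7 CPM in Hampshire and at 52.1, 50.5 and 69.8 CPM in Pietrain (adjusted p = 0.0205), and IGFBP4, a binding protein of IGF, was higher (adjusted p = 0.0483), the only DEGs among 13 genes of the IGF axis (median 0.40). IGF1R did not pass (adjusted p = 0.361), and IGF2 matched no gene by symbol. Of 22 AKT and mTOR genes, 5 were higher and 4 lower (median 0.18). RPTOR, the scaffold of mTOR complex 1, was at 12.9, 17.3 and 16.6 against 8.38, 7.30 and 7.63 CPM (adjusted p = 0.0142). Of 19 FOXO and atrophy genes, 2 were higher and 1, MSTN, was lower (median -0.34). FOXO3, the transcription factor of atrophy, was at 11.4, 9.83 and 10.15 CPM in Hampshire and at 5.09, 3.30 and 5.22 CPM in Pietrain, and FBXO32, its ubiquitin ligase target atrogin-1, at 41.1, 56.5 and 37.6 against 15.4, 17.1 and 25.2 CPM. Both were higher in all Hampshire pigs (adjusted p = 0.0151 each). Leaving out single pigs gave fit counts of 4 for FBXO32, 3 for FOXO3, GHR and RPTOR, and 1 for IGFBP4.

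**Figure D4:**
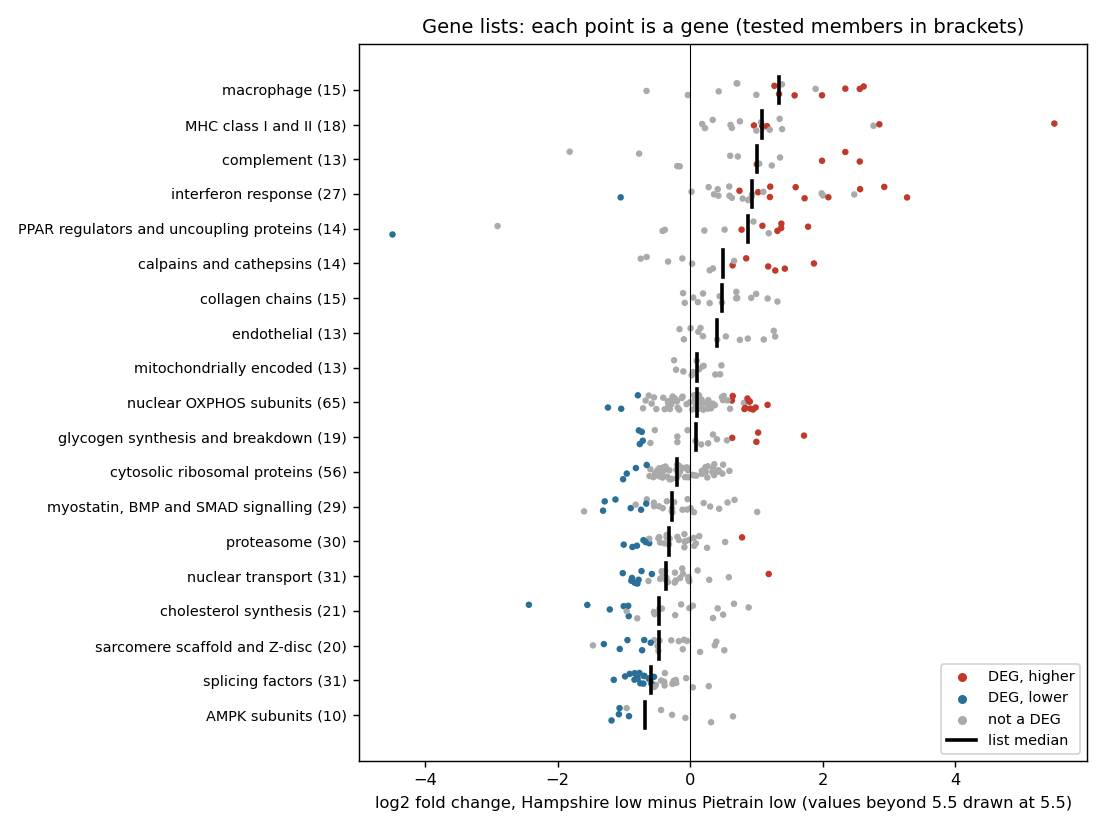
Log2 fold changes (x axis, Hampshire low minus Pietrain low) of the tested members of 19 gene lists (rows, number tested in brackets), with DEGs in red or blue and the list median as a black bar. Medians run from -0.68 for AMPK subunits to 1.34 for macrophage genes, and the lone far-left point among the PPAR regulators is PPARGC1A at -4.50.

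The genes that the study named for loin weight within the breeds were also compared between the breeds. The study chose them on libraries that include these, so they are no independent set. Of 35 tested, 6 were higher and 9 lower in Hampshire by edgeR (median -0.17). The 35 include OAZ1 and RPL27, which the study used as endogenous controls and did not name for loin weight, and neither passed. RNF19A, a ubiquitin ligase, was at 43.1, 33.4 and 36.5 against 58.8, 66.6 and 73.2 CPM (adjusted p = 0.0167), and the identifier with the symbol MED13 (ENSSSCG00000017672), a subunit of the Mediator complex, was 1.79-fold lower (adjusted p = 0.0248). The study gave MED13 under another identifier, so this value is not that of the feature it named. FEM1B, a substrate receptor of ubiquitin ligases, was lower and RAB3IL1, an exchange factor for Rab proteins, higher (adjusted p = 0.0146 and 0.0144). SETD2, a histone methyltransferase, was lower in every Hampshire pig (40.8 to 51.7 against 59.2 to 71.9 CPM) and missed the threshold by edgeR (adjusted p = 0.0541), while it passed by DESeq2 (adjusted p = 0.0351) and in the edgeR fit over all 13 pigs (adjusted p = 0.0449). COL6A1 and COL6A2, PCOLCE, MGP, TBX2 and CEBPD did not pass by edgeR, with log2 fold changes between 0.31 and 1.32. DESeq2 called COL6A2 and PCOLCE higher (adjusted p = 0.0057 and 0.0322), and TBX2 passed by edgeR with upper quartile factors and in the fit over 13 pigs (adjusted p = 0.0481 and 0.0363). The fit count was 3 for RNF19A, MED13, FEM1B and RAB3IL1.

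Some of the clearest breed differences lay outside these pathways. CHRNA9, a subunit of nicotinic acetylcholine receptors, was at 19.6, 10.22 and 21.9 CPM in Hampshire and at 0.329, 0.235 and 0.0669 CPM in Pietrain (6.35 ± 0.50 SE, adjusted p = 0.00109). TTC9, a repeat protein, was at 92.6, 97.1 and 76.1 against 9.78, 12.4 and 14.3 CPM, and HOMER3, a scaffold of calcium signalling, at 115, 132 and 133 against 26.3, 23.9 and 31.8 CPM (adjusted p = 0.000807 and 0.00109). CIT, a kinase of cell division, and IGLC, an immunoglobulin light chain, were 24.6-fold and 28.1-fold higher at low levels, with Pietrain pigs at 1.81 CPM or less. HMGA1, a chromatin protein, and TMEM140 were higher with adjusted p = 0.00413 each. On the lower side, ASB15, a muscle substrate receptor for ubiquitin ligases, was at 16.3, 17.2 and 13.1 CPM in Hampshire and at 43.6, 67.7 and 74.4 CPM in Pietrain (-1.99 ± 0.23 SE, adjusted p = 0.0061). MDM2, the ligase that degrades p53, was at 30.8, 30.4 and 27.8 against 62.9, 81.4 and 78.1 CPM, and NRAS, a small GTPase, at 2.63 to 3.52 against 9.44 to 14.7 CPM (adjusted p = 0.00687 and 0.00702). All genes of this paragraph had a fit count of 6.

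A few genes had no counts in 1 breed. Among the DEGs, 7 had 0 counts in all 3 Pietrain low pigs and 3 had 0 in all 3 Hampshire low pigs, most of them without a symbol in the tables used here. The identifier ENSSSCG00000028235 had 4012, 3492 and 2541 counts in the Hampshire low pigs and 0 in the Pietrain low pigs, at least 2640-fold higher against 3 counts over the group, and gave the smallest adjusted p-value of all genes (0.000203). In the high loin weight pigs it had 2974, 16 and 0 counts in Hampshire and 0 in all 4 Pietrain pigs. Of the Hampshire high pigs, 1 was within the range of the Hampshire low pigs and the other two had few or no counts. ENSSSCG00000010411 had 91, 122 and 41 counts in the Pietrain low pigs and 0 in every Hampshire pig of both weights. At low weight it was at least 112-fold lower in Hampshire. In the Pietrain high pigs it had 65, 27, 86 and 0 counts. A count of 0 does not separate a silent gene from reads that were assigned elsewhere.

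The direction of a breed difference went with gene span, the distance from start to end of the gene on the chromosome. Among 9958 tested genes with coordinates, those under 5 kb had a median log2 fold change of 0.21, with 18.2% higher and 7.16% lower DEGs in Hampshire. Genes of 50 to 100 kb had a median of -0.27, with 5.39% higher and 21.7% lower. The Spearman correlation of span and fold change across genes was -0.215. Every pig followed its breed: the difference between genes of at least 50 kb and genes under 10 kb, in log2 CPM relative to the mean of the 6 pigs, was -0.256 to -0.161 in Hampshire and 0.122 to 0.296 in Pietrain. The cause of this trend was not tested. With the span trend removed per pig, 2652 of 9958 genes were DEGs, 2130 of them also DEGs before, and PPARGC1A stayed at -4.32, while the nuclear transport median moved from -0.36 to -0.17. The AMPK median was -0.23 over the 9 genes with coordinates, which exclude PRKAG3, against -0.44 over the same 9 genes before. Of 56 cytosolic ribosomal proteins, 20 were lower with the span trend removed, against 4 before.

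The same breed contrast was fitted in 7 other pigs, the 3 Hampshire and 4 Pietrain pigs with high loin weight, which share no library with the low pigs. There 5353 of 12210 genes (43.8%) were DEGs. Of 2808 low DEGs tested in both, 1813 (64.6%) were DEGs in the same direction at high loin weight and 18 in the opposite direction, and 93.1% had the same sign, against 76.5% of all 11756 genes tested in both. The shared genes were 34.8% of the 5212 high DEGs. PPARGC1A was at 2.45 ± 0.79 CPM in Hampshire (SD, n = 3) and at 101 ± 73.6 CPM in Pietrain (SD, n = 4), a log2 fold change of -5.37 (adjusted p = 0.0025). GRN and HOMER3 were higher again, with log2 fold changes of 2.26 and 2.30, close to the 2.35 and 2.21 at low weight, and so were MYOD1 at 1.71 and UCP3 at 1.93. LDHA and CA3 were lower again at -0.87 and -1.16. GYS1 and SLC2A4 were not, at -0.0034 and -0.21 (adjusted p = 0.992 and 0.614), but the test of the difference between weights did not pass for either (adjusted p = 0.0937 and 0.062).

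The difference between the 2 breed contrasts was tested in 1 fit over all 13 pigs. It passed for 757 of 12831 genes (5.9%), and the breed difference was more positive at low weight for 542 and more negative for 215. Of the low DEGs, 173 were among them. FOXO3 and FBXO32 turned around: at high weight their log2 fold changes were -1.38 and -1.46 (adjusted p = 0.0188 and 0.0575), and the difference between weights was 2.55 and 2.65 (adjusted p = 0.00993 and 0.0421). SYNM and CACNA2D1 were lower in Hampshire at both weights and much lower at high weight, at -2.97 and -4.01 there against -0.95 and -1.53. Cytosolic ribosomal proteins stood out as a group, with 44 of 56 passing this test. Their median log2 fold change was -0.20 at low and 0.95 at high weight, where 46 were higher in Hampshire and none lower. Oxidative phosphorylation genes had medians of 0.10 and 0.73, and 7 passed. Among tested genes under 5 kb in span, the median moved from 0.21 at low to 0.66 at high weight. The Spearman correlation of span and fold change was -0.215 at low and -0.391 at high weight. The part of gene span in the shifts of these lists was not tested. The count of 757 was 379 without Hampshire low pig 3, 424 without Hampshire high pig 9, 487, 489 and 494 without Hampshire low pig 2, Pietrain low pig 5 and Pietrain low pig 8, and 491 without Hampshire high pig 10.

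**Figure D5:**
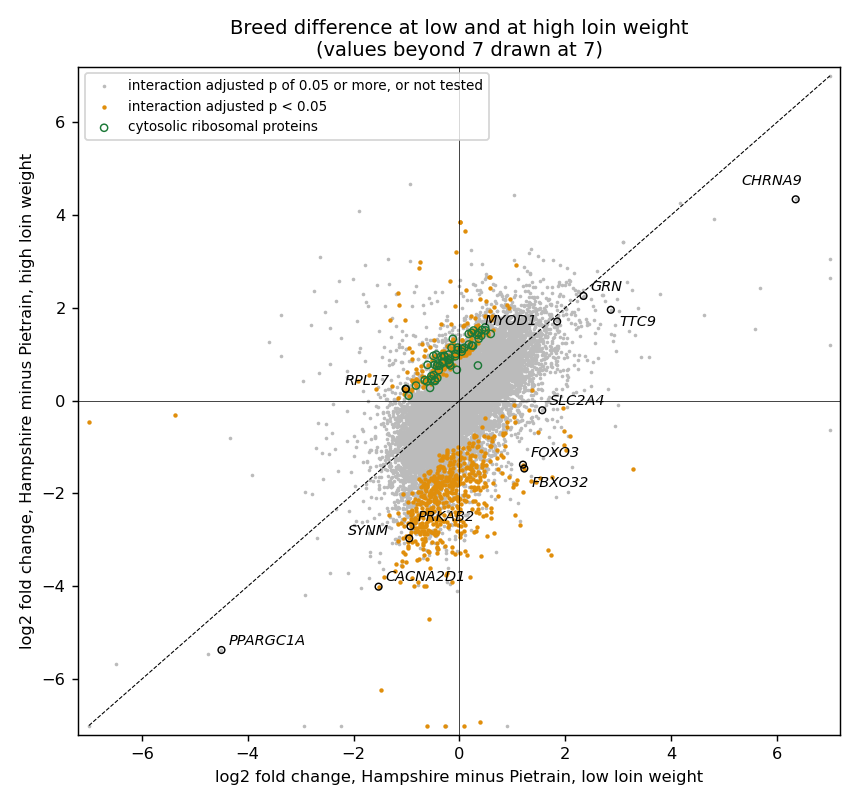
Log2 fold change, Hampshire minus Pietrain, at low (x axis) and high (y axis) loin weight for genes tested in both, with the line of equal values dashed. Orange marks genes whose breed difference differed between weights (adjusted p under 0.05), green circles mark cytosolic ribosomal proteins, which lie above the line (medians -0.20 and 0.95), and FOXO3 and FBXO32 lie at lower right.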

How the data were processed

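RNA of longissimus lumborum from 13 pigs was sequenced by the authors from TruSeq libraries. For each breed the authors deposited a table of whole-number counts, 1 row per Ensembl gene, on the Sscrofa10.2 build, and their processing notes name FastQC, STAR, RSEM and DESeq2 without versions. How estimated counts became whole numbers is not given in the sources used here. The authors also deposited tables of their own comparisons with fold changes, p-values and gene coordinates, of which only the coordinates and names were used.

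The tables were joined on 25322 identifiers, of which 13168 had a symbol (7066 from the authors' tables, 6102 from a table of gene names) and 9975 had coordinates. Low pigs were fitted alone in R 4.3.3 with edgeR 4.0.16 (TMM, filterByExpr, glmQLFit, glmQLFTest), and a DEG needed both an adjusted p below 0.05 (Benjamini-Hochberg) and a difference of 1.2-fold or more. Standard errors are the log2 fold change over the root of F. Permutations were run on log2(CPM + 0.5). The tests were checked on simulated counts.

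The 46 gene lists (927 of 1192 symbols tested), the comparison and the rule for named genes were chosen with earlier results of these data known. The rule took the 8 DEGs with the smallest p and the 6 with the largest change in each direction (symbol, mean CPM of at least 5, no overlap), the 2 DEGs with the smallest p per list and direction, and a fixed list of pig muscle genes. PRKAB2, TNNI1, TNNT1, PTPRC, CIDEC, ISG15 and the identifiers at 0 counts were named after their values were seen. Alternatives were DESeq2 1.42.0, its size factors, upper quartile factors, other filters on low counts (none, or at least 10 counts in every pig), no fold threshold, a gene span offset, 1 fit over all pigs and leaving out each pig. Figures were drawn with matplotlib. The SE and SD values include the spread between pigs, while floors cover counting error only. No sequence was used. A few genes are not reported here.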

Additional observations from a re-analysis of the deposited data

Results flagged for a closer look

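For 15 of the 158 genes followed one by one, the breed difference itself differed between low and high loin weight. This test was the fit over 13 pigs (edgeR, Benjamini-Hochberg adjusted p under 0.05). Other members of the gene lists passed it too and are not given here. Values are the log2 fold change Hampshire minus Pietrain at low weight minus that at high weight, and no cause was tested.

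The breed difference changed by 2.55 for FOXO3 (adjusted p = 0.00993) and by 2.65 for FBXO32 (adjusted p = 0.0421), both atrophy genes that were higher in Hampshire at low weight and had the opposite sign at high weight. Of the AMPK genes, PRKAB2 changed by 1.76 (adjusted p = 0.0097) and PRKAA2 by 0.93 (adjusted p = 0.0412), both lower in Hampshire at both weights and more so at high weight. Among structural and calcium genes the change was 1.99 for SYNM (adjusted p = 0.00251), 0.97 for NEB (adjusted p = 0.0311), 1.43 for TRDN (adjusted p = 0.0166) and 2.46 for CACNA2D1 (adjusted p = 0.00386). SGCA, a sarcoglycan of the dystrophin complex, changed by -1.19 (adjusted p = 0.0206), being higher in Hampshire at both weights.

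The identifier with the symbol MED13 (ENSSSCG00000017672) changed by 2.17 (adjusted p = 0.00793) and MDM2 by 1.13 (adjusted p = 0.0277). The study gave MED13 under another identifier. The ribosomal proteins went the other way, at -1.29 for RPL17, -1.08 for RPL9 and -0.95 for RPL27 (adjusted p = 0.017, 0.0422 and 0.0492). The identifier of TAP1 without counts in the Pietrain low pigs gave 13.1 (adjusted p = 0.0195), a fitted value that depends on the prior for its 0 counts and is no bound. These values of single genes were not followed with 1 pig left out. Only the number of genes passing the test was.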

How the results depend on the processing

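No paired analysis was possible because the 2 low groups share only pig number 3, which names unrelated pigs of different breeds. The 2830 DEGs stayed within 1.5 times under each alternative that kept all 6 pigs: 3327 by DESeq2, 2796 with its size factors, 2843 with upper quartile factors (1527 higher and 1316 lower), 2565 without a filter, 3027 with at least 10 counts in every pig, 2652 with the span offset and 2300 in 1 fit over all 13 pigs. Leaving out 1 pig gave 195 to 3572 DEGs, and 3464 to 5693 at high weight. The breed difference differed between weights for 1224 genes by DESeq2 and for 379 to 1052 genes with 1 pig left out. Counts of pigs of 1 group differed with a chi-square of 23.7 to 61.5 per degree of freedom (1 is counting noise alone), so depth set the error less than the pigs did.

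Of 158 genes followed, none that was a DEG changed sign when a pig was left out. The log2 fold change of MYH7 turned to 0.00293 with upper quartile factors and to 0.00439 with the span offset, and that of PYGM to -0.0115 with the span offset. With 1 pig left out, values crossed 0 for CAPN3 (-0.0839 to 0.127), MYH7 (-0.628 to 0.622), MYL3 (-0.44 to 0.904), TNNI1 (-0.544 to 0.602) and TNNT1 (-0.824 to 0.297), none of them a DEG. In the fit over all 13 pigs, 13 of the DEGs followed no longer passed (adjusted p from 0.0501 to 0.471): ACTA1, ATP2A1, BNIP3L, CXCL10, FBXO32, GAA, GBP1, GPD2, IGFBP4, LIPE, MYOT, PRKAG3 and SCD. With the span offset, 9 of those with coordinates did not (0.0533 to 0.0995): ACTA1, ASH1L, CD36, IGFBP4, IPO8, MED13, MED14, NEB and PHKB. MYOT was also lost with DESeq2 size factors (adjusted p = 0.0531).

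The span offset needs coordinates, so lists also lost members: scaffold went from 20 to 13 genes, coupling from 17 to 12, dystrophin from 12 to 11, AMPK from 10 to 9, methyltransferases from 21 to 20, myogenic from 13 to 6 and energy buffer from 13 to 11. Over those genes the medians before the offset were -0.462, -0.142, 0.438, -0.441, -0.0917, -0.176 and 0.54. With the offset, list medians moved to -0.308 for sarcomere scaffold, 0.502 for dystrophin complex, -0.139 for excitation-contraction coupling, -0.225 for AMPK, -0.419 for cytosolic ribosomal proteins, -0.17 for nuclear transport, 0.0446 for histone lysine methyltransferases, 0.0219 for myogenic regulators, 0.0917 for AKT and mTOR, 0.408 for energy buffer and -0.321 for genes named by the study. With upper quartile factors they moved to 0.0708 for excitation-contraction coupling, -0.28 for nuclear transport, -0.149 for Mediator, 0.251 for AKT and mTOR and 0.166 for autophagy. Membership and offset changed together in the lists that lost genes, and otherwise the cause was not tested.

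With 1 pig left out, the medians that moved by more than the spread between pigs ranged as follows: fast fibre contractile -0.224 to -0.0163, dystrophin complex 0.168 to 0.317, RYR1 and excitation-contraction coupling -0.0837 to 0.0471, AMPK subunits -0.698 to -0.537, glycogen synthesis and breakdown -0.034 to 0.117, citric acid cycle -0.07 to 0.256, adipocyte and lipid storage 0.377 to 1.07, nuclear transport -0.43 to -0.248, Mediator complex -0.273 to -0.0764, myostatin, BMP and SMAD signalling -0.432 to -0.0994, AKT and mTOR 0.119 to 0.164, heat shock and chaperones -0.0335 to 0.234, circadian clock -0.104 to 0.0651, immediate early -0.371 to 1.09, blood 0.309 to 1.4, antioxidant -0.0207 to 0.153, autophagy and mitophagy 0.0455 to 0.13 and energy buffer 0.33 to 0.664.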

Other observations

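Lists not described above also held DEGs between the breeds at low loin weight. Of 12 dystrophin complex genes, SGCA was higher and 2 were lower in Hampshire (median 0.25), namely SSPN, sarcospan, at 161, 140 and 152 against 282, 430 and 405 CPM (adjusted p = 0.0096), and SGCB, a sarcoglycan, at 48.6, 51.9 and 51.5 against 83.6, 116 and 101 CPM (adjusted p = 0.011). Of 33 autophagy and mitophagy genes, 8 were higher and 4 lower (median 0.10), with LAMP1, a lysosomal membrane protein, at 89.7, 107 and 105 against 57.3, 61.1 and 56.0 CPM (adjusted p = 0.0133) and BNIP3L, a mitophagy receptor, at 19.6 to 23.6 against 32.3 to 34.2 CPM (adjusted p = 0.0253). Of 21 heat shock and chaperone genes, 6 were higher and 1 lower (median 0.07). Of 22 antioxidant genes, 3 were higher and 2 lower (median 0.14), with GPX4, which reduces lipid peroxides, at 23.9, 21.4 and 21.5 against 9.37, 5.73 and 9.51 CPM (adjusted p = 0.00992) and GCLM, a subunit of the enzyme that starts glutathione synthesis, at 17.4 to 19.3 against 34.2 to 38.7 CPM (adjusted p = 0.00974).

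Of 17 circadian clock genes, 1 was lower and none higher (median 0.04), NR1D2, a nuclear receptor of the clock, at 183, 172 and 188 CPM in Hampshire and 368, 472 and 470 CPM in Pietrain (-1.27 ± 0.17 SE, adjusted p = 0.00702). It passed in all 6 fits that left out 1 pig. Time of slaughter is not given in the sources used here. Of 21 immediate early genes, IER3 was higher (median -0.10), and without Pietrain pig 3 there were 8 higher and the median was 1.09. Of 28 Mediator genes 3 were higher and 4 lower (median -0.23), of 21 histone lysine methyltransferases 1, ASH1L, was lower (median -0.09), and of 10 skeletal muscle identity genes 1 was higher and 2 were lower (median 0.15).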
